A study of Mus musculus with 5 samples.

Results

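The 9 genes described here encode the molecules by which endothelium holds and passes leukocytes: Icam1, Icam2, Vcam1, Sele, Selp, Pecam1, Cd34, Vwf and Jam2. They were taken by symbol from a fixed list and are 9 of the 31053 genes in the count matrices. All 9 were found. Their transcripts were followed in endothelial cells of adult mouse lung, in 3 classes of these cells, and in alveolar type 2 (AT2) cells, the surfactant-producing epithelial cells in which the study deleted an integrin.

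The study compared lungs with and without β1 integrin (Itgb1) in AT2 cells after intratracheal lipopolysaccharide (LPS), a bacterial cell wall component that provokes neutrophilic lung injury. Mice labelled Itgb1 iKO, called β1 AT2-KO here, carried SP-C rtTA, Tet-O-Cre and homozygous floxed Itgb1. The SP-C promoter, of AT2 cells and not of endothelium, drove rtTA, through which doxycycline induced Cre. Littermates labelled Itgb1 fl/fl, called β1 fl/fl, carried the floxed alleles without rtTA and Cre and drank doxycycline as well. The 5 libraries were β1 fl/fl LPS at day 7, β1 AT2-KO LPS at day 7, β1 AT2-KO PBS at day 7, β1 fl/fl LPS at day 21 and β1 AT2-KO LPS at day 21; PBS was the vehicle, and no β1 fl/fl PBS library was analysed here. Viable cells negative for CD45 and Ter119 were sorted, which removed leukocytes and erythroid cells, and the day 21 samples were also enriched for epithelium by EPCAM.

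Each library pooled cells of 3 mice, told apart by antibody hashtags, and the mouse was the replicate (n = 3 for each group). All mice of a condition shared 1 library, so condition and library cannot be told apart. Levels are unique molecular identifiers (UMIs) of a gene in each 1000000 UMIs of the same mouse and cell class, written as CPM. The 5′ libraries give no length-normalised values, so levels of different genes were not compared with each other.

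Leukocytes leave the blood in steps. Selectins on activated endothelium (E-selectin from Sele, P-selectin from Selp) slow the flowing cells, immunoglobulin superfamily members (ICAM-1, ICAM-2, VCAM-1) bind leukocyte integrins and arrest them, and junctional molecules (PECAM-1, JAM-B from Jam2) take part in the passage between cells. CD34 is a sialomucin of the luminal coat, and von Willebrand factor (Vwf) is the multimeric protein that is stored with P-selectin in Weibel-Palade bodies. In most organs this sequence runs in postcapillary venules, whereas in the lung neutrophils also leave through the alveolar capillaries, where selectins are largely dispensable.

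On the mouse assembly GRCm38, Icam1 (ENSMUSG00000037405) lies on the plus strand of chromosome 9 from 21015985 to 21028817. The selectin genes are neighbours on the plus strand of chromosome 1, Sele (ENSMUSG00000026582) from 164048234 to 164057677 and Selp (ENSMUSG00000026580) from 164115264 to 164150026, and Cd34 (ENSMUSG00000016494) lies on the same strand from 194938819 to 194961279. Icam2 (ENSMUSG00000001029, 106377656 to 106388075) and Pecam1 (ENSMUSG00000020717, 106654217 to 106750628) lie close together on the minus strand of chromosome 11. Vcam1 (ENSMUSG00000027962) is on the minus strand of chromosome 3 from 116109949 to 116129688. Vwf (ENSMUSG00000001930) is on the plus strand of chromosome 6 from 125546774 to 125686679, and Jam2 (ENSMUSG00000053062) on the plus strand of chromosome 16 from 84774123 to 84825928.

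The 250 bases before the start site are shown for the 4 of 9 members with an entry in the RefSeq promoter table (GRCm38.p6). The other members had no entry there. All 4 are on the plus strand and are printed 5′ to 3′. Capitals mark matches, on either strand, to 4 short motifs. The κB type was searched as GGNNNTTCC. The AP-1 type was searched as TGANTCA. The ETS type was searched as AGGAAG, the core that endothelial ETS factors read. The TATA box was searched as TATAAA. No match overlapped one of another motif.
Icam1, chr9:21015690-21015939: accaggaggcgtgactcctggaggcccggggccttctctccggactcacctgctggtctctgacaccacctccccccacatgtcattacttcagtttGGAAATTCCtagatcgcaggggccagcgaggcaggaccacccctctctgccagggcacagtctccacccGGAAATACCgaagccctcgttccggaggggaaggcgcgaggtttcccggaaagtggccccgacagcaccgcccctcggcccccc
Sele, chr1:164047984-164048233: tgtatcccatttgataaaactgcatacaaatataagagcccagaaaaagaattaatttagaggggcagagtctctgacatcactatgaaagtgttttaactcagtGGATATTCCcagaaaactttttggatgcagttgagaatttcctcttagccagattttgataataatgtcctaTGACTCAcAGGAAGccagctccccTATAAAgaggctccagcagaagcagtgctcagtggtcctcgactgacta
Selp, chr1:164115014-164115263: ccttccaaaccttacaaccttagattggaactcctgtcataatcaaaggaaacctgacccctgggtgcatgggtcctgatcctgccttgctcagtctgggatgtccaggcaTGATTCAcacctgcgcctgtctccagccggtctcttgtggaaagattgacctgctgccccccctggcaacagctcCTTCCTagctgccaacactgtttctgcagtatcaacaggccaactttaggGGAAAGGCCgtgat
Cd34, chr1:194938571-194938820: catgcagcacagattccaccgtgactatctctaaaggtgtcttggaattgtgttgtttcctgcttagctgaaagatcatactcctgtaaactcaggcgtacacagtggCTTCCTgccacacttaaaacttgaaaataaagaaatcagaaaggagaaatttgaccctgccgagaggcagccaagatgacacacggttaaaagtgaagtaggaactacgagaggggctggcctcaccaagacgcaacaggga
Counted back from the start site, the Icam1 window held κB type letters at -153 to -145 on both strands and at -84 to -76 on the opposite strand. The Sele window held all 4 motifs, with κB type at -145 to -137, AP-1 type at -73 to -67, ETS type at -65 to -60 and the TATA box at -49 to -44. The Selp window held κB type letters on the opposite strand at -14 to -6, AP-1 type at -139 to -133 and ETS type on the opposite strand at -64 to -59. The Cd34 window held 1 ETS type match, on the opposite strand at -142 to -137. Of 32817 such windows of the mouse genome, 15.7% held the κB type, 6.75% the AP-1 type, 29.5% the ETS type and 12.4% the TATA letters, so single matches are common. A match is a description of letters and not a binding site.

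Quality limits of 700 or more genes and 0.1 to 15% mitochondrial UMIs left between 2224 and 8671 cells for each library, with median depths of 2219 to 5330 UMIs. Endothelial cells, called by 2 or more UMIs of Cdh5 and Cldn5 together without Epcam or Col1a2, numbered 6446, 4638 and 7897 at day 7 (β1 fl/fl LPS, β1 AT2-KO LPS and β1 AT2-KO PBS) and 1163 and 878 at day 21 (β1 fl/fl and β1 AT2-KO LPS). They were divided into a Vwf class (2 or more Vwf UMIs), a Car4 class (1 or more Car4 UMIs and no Vwf UMI) and the remaining cells. Summed venous markers reached 1711 to 3729 CPM in the Vwf class against 31.6 to 173 in the Car4 class, and summed markers of aerocytes, the Car4-high capillary cells, reached 5691 to 11508 in the Car4 class against 139 to 1253 in the Vwf class. The Vwf class held only 74 and 19 cells at day 21, which left 270 genes with enough UMIs for its test. Vwf itself, Car4 and the other gating genes chose the cells and were not tested between classes.

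Several features of the libraries move with the groups. Between 50.3% and 78.7% of cells carried a single hashtag, and 15 to 102 cell barcodes were shared between pairs of libraries, at most 1.41% of the smaller one. Xist, the transcript of the inactive X chromosome, was at 332 to 345 CPM in endothelium of the β1 fl/fl LPS day 7 mice and at 0 in all 3 β1 AT2-KO LPS day 7 mice, so genotype and sex cannot be told apart at day 7. Among PBS mice it was 204 in mouse 1 and 10.5 and 7.26 in mice 2 and 3. Summed AT2 markers in endothelium ranged from 846 (β1 AT2-KO PBS day 7) to 18161 (β1 AT2-KO LPS day 21) CPM, stromal markers from 33.7 (β1 AT2-KO PBS day 7) to 244 (β1 AT2-KO LPS day 7), and leukocyte markers stayed at or below 7.13. Itgb1 was 287 ± 46.1 in AT2 cells of β1 fl/fl and 200.3 ± 47.8 in those of β1 AT2-KO mice after LPS at day 7, and 350 ± 24.7 against 153 ± 22.9 at day 21 (SD, n = 3); whether these 5′ UMIs lie in the deleted part of the gene is not given in the sources used here.

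The members divided sharply by endothelial class. Vcam1, Selp and Jam2 were highest in the Vwf class, Icam2, Cd34, Icam1 and, weakly, Pecam1 were highest in the Car4 class, as group means in all 5 libraries. Single mice did not always keep this order. In the class comparison, with mouse as a block over 15 mice, 10.7% of the 8797 genes tested differed between the Vwf and remaining classes and 34.2% of 11386 between the Car4 and remaining classes (edgeR quasi-likelihood, adjusted p under 0.05). Of the 7 members tested in the first comparison 4 were higher and 1 was lower in the Vwf class. Selp is among the 4 and reached the test only through the class in which it is high. Of the 6 members tested in the second, 4 were higher and 2 lower in the Car4 class.

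**Figure D1:**
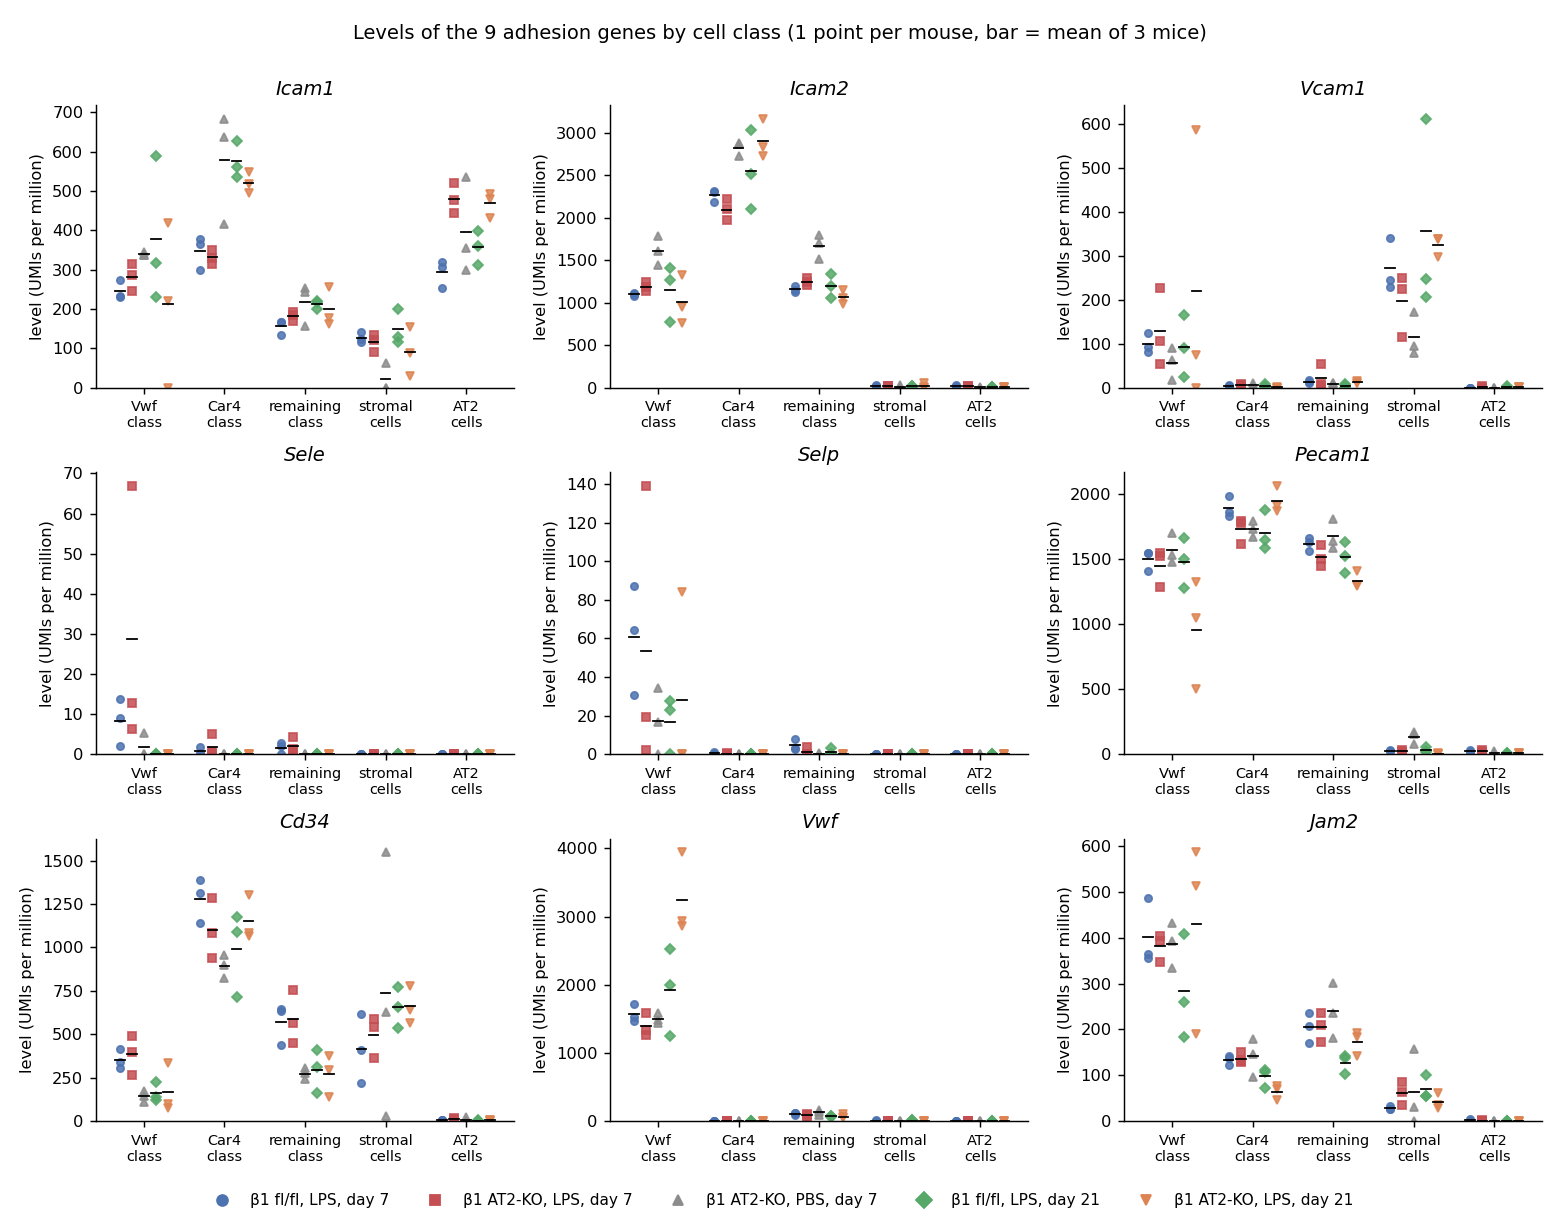
Level of each of the 9 genes in CPM (vertical axis, linear, a separate scale for each gene) in 3 endothelial classes, stromal cells and AT2 cells. Each point is 1 mouse, colours and symbols give the 5 groups, and the black bar is the mean of 3 mice. Selp has its highest means in the Vwf class, Icam2 and Cd34 reach their highest endothelial means in the Car4 class, and Icam1 has AT2 levels within the range of its endothelial levels.

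The selectins were rare transcripts of a few cells. Selp was detected in 41 of 6446 endothelial cells of β1 fl/fl LPS day 7 mice, in 32 of 4638 of β1 AT2-KO LPS day 7 mice and in 10 of 7897 of the PBS mice. In the Vwf class the shares were 5.13% (exact binomial 95% interval 3.41 to 7.38), 4.86% (3.17 to 7.10) and 1.26% (0.547 to 2.47) in the same order. These shares pool all cells of a library, and the intervals cover counting error only. By mouse the counts were 7 of 114, 6 of 165 and 9 of 133 in β1 fl/fl LPS mice. They were 1 of 151, 12 of 137 and 7 of 143 in β1 AT2-KO LPS mice, and 2 of 129, 0 of 156 and 4 of 216 in PBS mice. Thus β1 AT2-KO LPS mouse 1 lay among the PBS mice. Median depths of this class were 3109, 3172 and 2348 UMIs, and after every cell was thinned to 1500 UMIs the shares were 2.00%, 2.14% and 0.791%. In AT2 cells of the β1 AT2-KO LPS day 7 library, which have a median depth of 7626 UMIs, Selp was found in 1 of 386 cells. Of the Selp UMIs in endothelium, the Vwf class held 65.8%, 86.5% and 92.0% although it made up 8.16%, 11.1% and 8.02% of the endothelial cells. The remaining class held 48, 10 and 1 Selp UMIs in the same libraries, and 1 and 0 at day 21 (β1 fl/fl and β1 AT2-KO LPS).

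Sele, the cytokine-induced selectin, was rarer still. It was found in 12 endothelial cells of β1 fl/fl LPS day 7 mice, in 21 of β1 AT2-KO LPS day 7 mice and in 2 of the PBS mice. The levels were 2.02, 1.82 and 1.25 CPM in the 3 β1 fl/fl LPS mice, 1.09, 2.32 and 14.4 in the β1 AT2-KO LPS mice, and 0, 0.397 and 0 in the PBS mice. The high value of β1 AT2-KO LPS mouse 3 came from 52 UMIs in 10 cells, with 29 of them in a single cell. At day 21 no endothelial cell assigned to a mouse held a Sele UMI, but 3 cells without a hashtag in the β1 fl/fl library held 35. Sele had too few UMIs for the tests of LPS or genotype in endothelium or any of its classes. In the difference of LPS changes between the Vwf and remaining classes it was tested and did not pass (-0.29 ± 0.31, adjusted p 0.972, edgeR). The exact permutation test of LPS against PBS in all endothelium gave p = 0.1, the smallest value 3 mice against 3 can give. It was found in 0 of 573 stromal cells of the β1 AT2-KO LPS day 7 library, which allows a share of up to 0.642% by the exact interval; this limits cells with a UMI and not cells expressing the gene.

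Vcam1, the ligand of leukocyte α4 integrins, was like Selp highest in the Vwf class among the 3 endothelial classes. It stood at 91.3, 79.9 and 124 CPM in the Vwf class of the 3 β1 fl/fl LPS day 7 mice, against 2.43, 4.88 and 4.26 in their Car4 class and 12.3, 10.6 and 16.6 in their remaining cells. Each Vwf class value lay above each value of the other classes. Over all mice the Vwf class was 2.81 ± 0.17 log2 units above the remaining cells (7.00-fold, SE, adjusted p 4.08e-34), and the Car4 class lay 1.46 ± 0.26 log2 units below them, a log2 difference of -1.46 (adjusted p 1.44e-05, edgeR). Stromal cells also carried Vcam1, with means of 115 to 356 CPM over the 5 groups. The β1 AT2-KO PBS mean among them rests on only 9, 2 and 3 stromal cells in the 3 mice.

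Jam2, which encodes a junctional partner of leukocyte α4β1 integrin, had the same order of classes with a smaller range. In β1 fl/fl LPS day 7 mice it was at 365, 356 and 488 CPM in the Vwf class, at 171, 208 and 235 in remaining cells and at 121, 138 and 141 in the Car4 class. None of these 3 ranges overlapped. The Vwf class was 0.87 ± 0.07 log2 units above the remaining cells (adjusted p 7.01e-22), and the log2 difference of the Car4 class from the remaining cells was -0.65 ± 0.05 (adjusted p 3.32e-13, edgeR).

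Icam2, a constitutive ligand of leukocyte LFA-1, was a capillary transcript. Icam2 levels in the Car4 class of the β1 AT2-KO PBS mice were 2724, 2877 and 2876 CPM, against 1513, 1708 and 1799 in remaining cells and 1445, 1609 and 1786 in the Vwf class. The Car4 class lay apart from the other classes, which overlapped with each other. Over all mice the Car4 class was 1.01 ± 0.06 log2 units above the remaining cells (2.01-fold, adjusted p 2.43e-17), and the Vwf class did not pass the test (-0.12 ± 0.08, adjusted p 0.469, edgeR).

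Cd34 separated all 3 classes in the PBS mice, while in the β1 AT2-KO LPS day 7 mice the Vwf class and the remaining cells overlapped. In the PBS mice Cd34 stood at 898, 953 and 822 CPM in the Car4 class, at 303, 274 and 240.2 in remaining cells and at 173, 142 and 109.7 in the Vwf class, with no overlap. The log2 difference from the remaining cells over all mice was 1.44 ± 0.08 in the Car4 class (adjusted p 8.42e-18) and -0.73 ± 0.08 in the Vwf class (adjusted p 1.27e-14, edgeR).

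Icam1, the inducible ligand of leukocyte β2 integrins, was lowest in the remaining cells. In the PBS mice it was at 416, 684 and 637 CPM in the Car4 class, at 337, 338 and 346 in the Vwf class and at 157, 254 and 243 in remaining cells. Both classes lay above the remaining cells, by 1.24 ± 0.06 log2 units in the Car4 class (adjusted p 1.87e-21) and 0.64 ± 0.08 in the Vwf class (adjusted p 2.75e-12, edgeR). Pecam1, a homophilic junctional molecule used as a general endothelial marker, was nearly even, at 0.26 ± 0.05 log2 units higher in the Car4 class (adjusted p 2.46e-05) and -0.17 ± 0.08 in the Vwf class (adjusted p 0.223, edgeR).

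**Figure D2:**
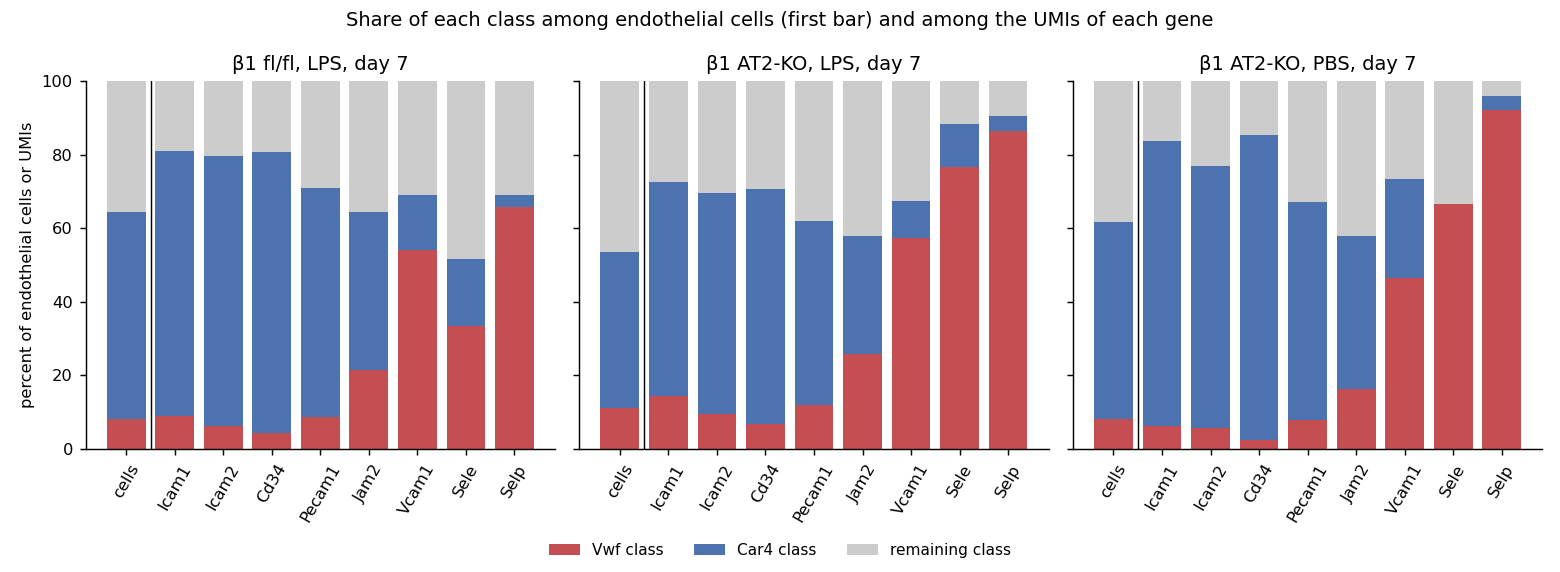
Percent of endothelial cells (first bar, vertical axis 0 to 100%) and of each gene's endothelial UMIs (other bars) in the Vwf, Car4 and remaining classes of the 3 day 7 libraries. The Vwf class holds 8.02 to 11.1% of the cells but 65.8 to 92.0% of Selp UMIs and 46.4 to 57.3% of Vcam1 UMIs; Sele rests on 33, 86 and 3 UMIs.

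In cells with no Vwf UMI, Icam1, Icam2 and Cd34 were highest where Car4 UMIs were most numerous. Among endothelial cells of PBS mice with no Vwf UMI, Icam1 averaged 205 ± 44.2, 195 ± 55.1 and 225 ± 102 CPM in cells with 0, 1 and 2 to 4 Car4 UMIs, and 909 ± 204 in cells with 5 or more (SD, n = 3). Icam2 averaged 1569 ± 128, 1627 ± 124, 1697 ± 84.0 and 3868 ± 70.6 over the same steps, and Cd34 275 ± 29.8, 298 ± 43.4, 349 ± 39.5 and 1400.02 ± 112. Jam2 went the other way, from 241 ± 59.1 in cells without Car4 to 74.9 ± 24.8 in cells with 5 or more UMIs. The steps were chosen after the values were seen. Median depth rose along them from 1930 to 3032 UMIs for each cell, which the scaling to total UMIs takes up only on average.

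**Figure D3:**
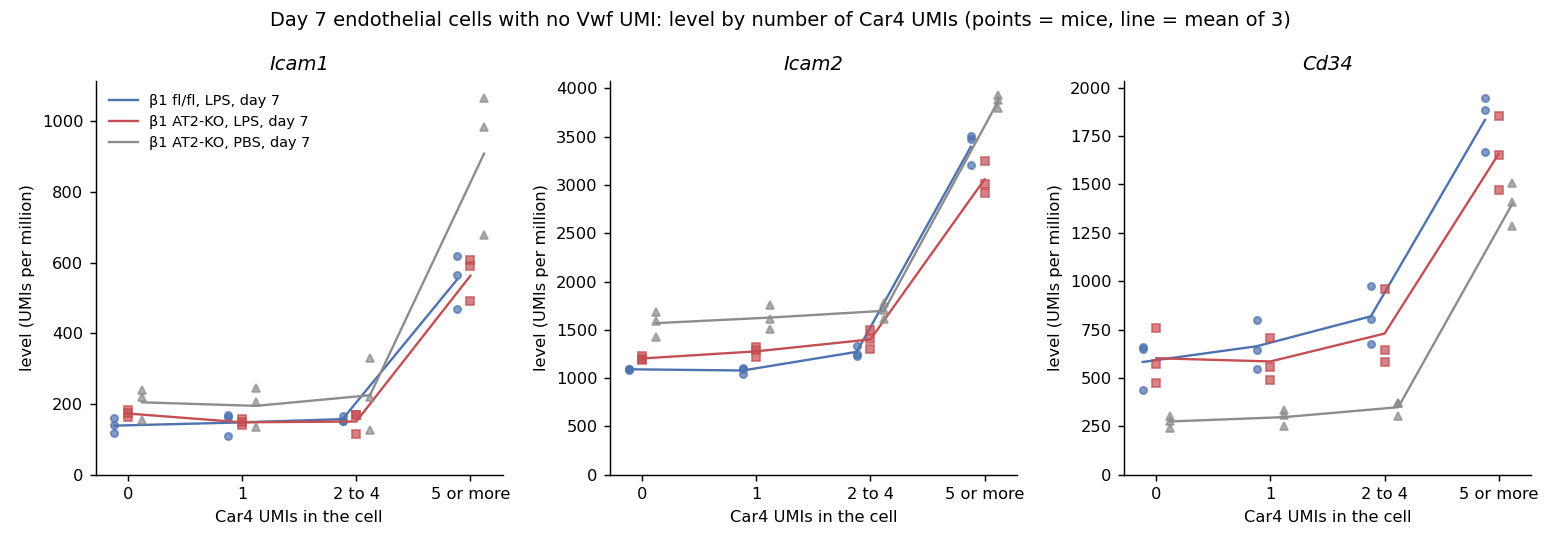
Level of Icam1, Icam2 and Cd34 in CPM (vertical axis) by the number of Car4 UMIs in the cell (horizontal axis) in endothelial cells with no Vwf UMI at day 7. Points are mice and lines join the means of 3 mice; with 5 or more Car4 UMIs Icam1 averages 909 in PBS mice against 563 and 551 in the β1 AT2-KO and β1 fl/fl LPS mice.

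Cells with selectin transcripts often held Vcam1 too. In β1 fl/fl LPS day 7 endothelium, Vcam1 was found in 20 of 41 cells with Selp (48.8%) and in 1.80% of the cells without it. In the β1 AT2-KO LPS day 7 library the counts were 16 of 32 cells (50.0%) against 3.00%. Sele was found in 6 of the 41 and in 6 of the 32 Selp cells, against 0.0937% and 0.326% of the other endothelial cells. These shares describe cells of 1 library each and were not matched for depth or for class. In β1 fl/fl LPS day 7 endothelium the Vwf class held 65.8% of Selp UMIs and 54.1% of Vcam1 UMIs.

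The effect of LPS could be followed at day 7 within β1 AT2-KO mice, where both LPS and PBS libraries exist. Icam1 and Icam2 were lower in endothelium of LPS mice than of PBS mice, Vcam1 was higher, and Cd34 was higher in the Vwf and remaining classes but not detectably in the Car4 class. In all endothelium 26.3% of 11646 genes passed the test, and of the 8 members tested 1 was higher and 2 were lower, a share near that background. In the classes the background was 7.74% in the Vwf class (1 of 7 members higher and 1 lower), 18.9% in the Car4 class (2 of 6 lower) and 15.4% in the remaining cells (1 of 6 higher and 1 lower).

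Icam1 in endothelium was at 245, 269 and 274 CPM in the LPS mice and at 314, 503 and 484 in the PBS mice. Each LPS mouse lay below each PBS mouse, and PBS mouse 1, the one with high Xist, lay nearest to them. The log2 fold change was -0.82 ± 0.16 (SE, adjusted p 0.00324 by edgeR), and the call was kept in all 13 alternatives. Within the Car4 class the values were 314, 329.5 and 349 against 416, 684 and 637, a log2 change of -0.88 ± 0.15 (adjusted p 0.00125). The share of endothelial cells in the Car4 class was also lower after LPS, at 40.8%, 41.0% and 42.2% against 51.7%, 51.4% and 52.4%, and summed aerocyte markers in that class were 5691 against 9471 CPM. In cells with 5 or more Car4 UMIs Icam1 was still lower, at 491, 609 and 589 against 678, 1066 and 982, a log2 change of -0.74 (adjusted p 0.00466). In the Vwf class (-0.31 ± 0.14, adjusted p 0.220) and the remaining cells (-0.34 ± 0.16, adjusted p 0.179) Icam1 did not pass the test, although in the remaining cells it passed without PBS mouse 1 (-0.53, adjusted p 0.0122) and with no low-count filter (-0.36, adjusted p 0.0323). The LPS change of the Car4 class differed from that of the remaining cells by -0.56 ± 0.09 log2 units (adjusted p 0.00115, edgeR), a comparison in which 0.359% of 10593 genes passed. With the Car4 class limited to cells with 5 or more Car4 UMIs this difference was -0.39 and no longer passed (adjusted p 0.104).

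Icam2 was at 1639.9, 1568 and 1665 CPM in endothelium of the LPS mice and at 2196, 2361 and 2427 in that of the PBS mice, with no overlap. The log2 fold change was -0.61 ± 0.08 (adjusted p 0.000295, edgeR), and the 3 classes gave much the same value, -0.48 ± 0.12 in the Vwf class (adjusted p 0.0141), -0.51 ± 0.08 in the Car4 class (adjusted p 0.000763) and -0.51 ± 0.10 in the remaining cells (adjusted p 0.00356). Without PBS mouse 3 the call in the Vwf class was lost (adjusted p 0.104). The difference between the changes of the Car4 and remaining classes was -0.02 ± 0.07 log2 units (adjusted p 0.965, edgeR).

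Cd34 rose after LPS outside the Car4 class. In the Vwf class it was at 399.6, 268 and 489.9 CPM in the LPS mice against 173, 142 and 109.7 in the PBS mice, and in the remaining cells at 562, 450.4 and 753 against 303, 274 and 240.2. Neither pair of groups overlapped. The log2 fold change was 1.43 ± 0.20 in the Vwf class (adjusted p 4.03e-05) and 1.02 ± 0.19 in the remaining cells (adjusted p 0.00249), and 0.23 ± 0.12 in the Car4 class (adjusted p 0.200, edgeR). The LPS change of the Car4 class was 0.80 ± 0.09 log2 units smaller than that of the remaining cells, a difference of -0.80 (adjusted p 6.78e-06), and it was the same -0.80 with 5 or more Car4 UMIs (adjusted p 0.000423). The Vwf and remaining classes differed in this change by 0.36 ± 0.15 (adjusted p 0.637), a comparison in which 0.437% of 9838 genes and none of the 8 members tested passed; 1 of them, Cd34, had an unadjusted p under 0.05 (0.0208). The β1 fl/fl LPS mice, which have no PBS group here, stood at 304, 339.7 and 413 in the Vwf class and at 437, 635 and 644 in the remaining cells, on the side of the β1 AT2-KO LPS mice. Stromal markers summed to 193 CPM in the Vwf class of LPS mice and 29.4 in that of PBS mice. Stromal cells themselves carried Cd34, at 586, 539 and 359.9 CPM in the LPS mice and 31.3, 1547 and 630 in the PBS mice. The PBS values rest on only 9, 2 and 3 stromal cells, against 45, 73 and 173 in the LPS mice. The part of stromal cells in the Cd34 result was not tested. At day 21 the remaining cells of β1 fl/fl and β1 AT2-KO LPS mice averaged 293 ± 124 and 271 ± 119.8 (SD, n = 3).

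Vcam1 in endothelium was at 11.4, 32.3 and 41.1 CPM in LPS mice and 5.21, 13.7 and 13.0 in PBS mice, so LPS mouse 1 lay among the PBS mice. The log2 fold change was 1.34 ± 0.42 (adjusted p 0.0362, edgeR), and the call was lost without LPS mouse 2 (adjusted p 0.0961), without LPS mouse 3 (0.133), without PBS mouse 1 (0.0944) or without PBS mouse 3 (0.0581). It passed in no single class, with 1.04 ± 0.39 in the Vwf class (adjusted p 0.109), where it passed without LPS mouse 1 (1.40, adjusted p 0.00942), with the stricter cell gate (1.42, adjusted p 0.0388) and with no low-count filter (1.04, adjusted p 8.02e-05). In the remaining cells it passed with no low-count filter (1.20, adjusted p 0.000773). Stromal markers, whose own cells carry Vcam1, moved the same way in endothelium, with 5 of 5 tested markers higher and sums of 244 CPM after LPS and 33.7 after PBS. Their part in the Vcam1 result was not tested.

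Selp had the highest fitted change of the 8 members tested in endothelium but did not pass, with a log2 value of 2.27 ± 0.97 (adjusted p 0.104, edgeR). In the Vwf class the LPS mice were at 2.13, 139 and 19.4 CPM and the PBS mice at 34.6, 0 and 16.7, so the groups overlapped. The log2 value there was 1.58 ± 0.78 (adjusted p 0.265, edgeR), and it passed without LPS mouse 1 (2.12, adjusted p 0.0418) and with no low-count filter (adjusted p 0.000276). Without LPS mouse 2 the endothelial value was 0.71 (adjusted p 0.659), and without LPS mouse 1 it was 2.81 and passed (adjusted p 0.0298). Pecam1 (-0.18 ± 0.08, adjusted p 0.125), Jam2 (-0.07 ± 0.17, adjusted p 0.803), Vwf (0.35 ± 0.17, adjusted p 0.144) and Cd34 (0.27 ± 0.13, adjusted p 0.15) did not pass the test in all endothelium. The value of Cd34 passed without LPS mouse 2 (0.38, adjusted p 0.0431) and that of Vwf without PBS mouse 3 (0.58, adjusted p 0.0108).

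**Figure D4:**
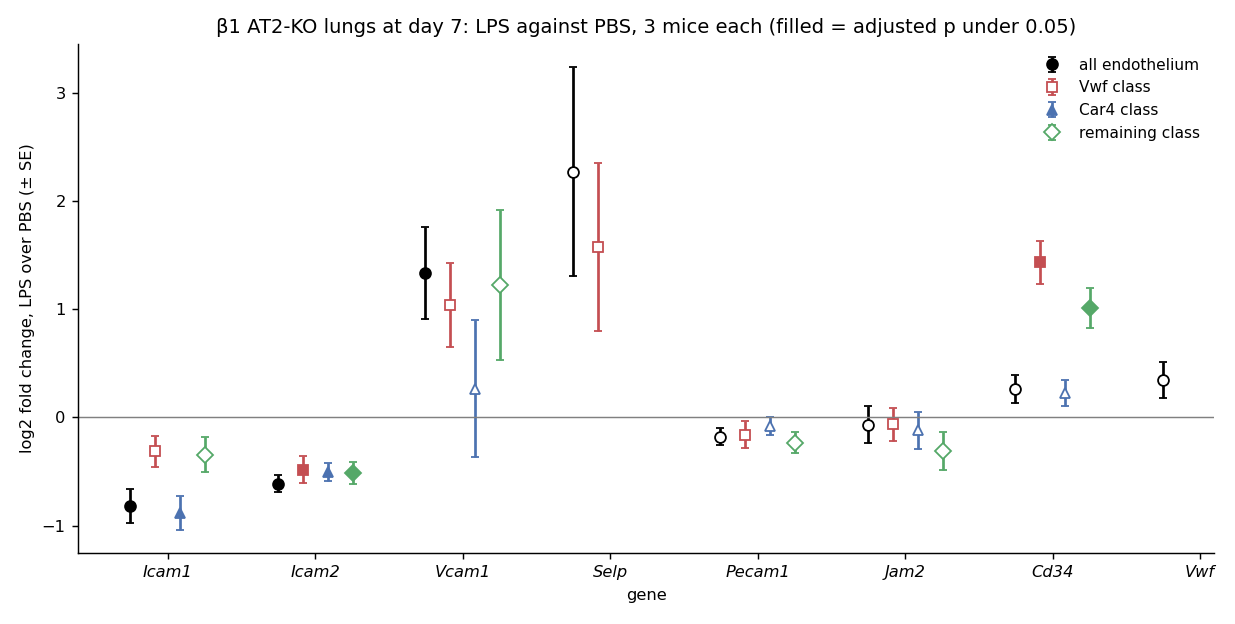
Log2 fold change of LPS over PBS (vertical axis, points, with SE bars) for each member tested, in all endothelium and in the 3 classes of β1 AT2-KO lungs at day 7, 3 mice in each group. Filled symbols passed an adjusted p of 0.05; Icam2 lies between -0.61 and -0.48 in every class, while Cd34 lies at 1.43 and 1.02 in the Vwf and remaining classes and at 0.23 in the Car4 class.

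Loss of β1 integrin in AT2 cells was compared after LPS at both times, which asks whether vascular adhesion genes differ when the epithelium lacks the integrin. No member passed the test in endothelium, either at day 7 (0 of 8 tested, where 2.21% of 11646 genes passed) or at day 21 (0 of 6 tested, where 1.8% of 7235 genes passed). By edgeR, 0 members had an unadjusted p under 0.05 at day 7 and 3 had one at day 21, Icam2, Cd34 and Vwf, and DESeq2 also called 0 at each time. Within classes at day 7, edgeR and DESeq2 called none of 7 members in the Vwf class (background 1.42%), none of 6 in the Car4 class (1.35%) and none of 6 in the remaining cells (0.845%), and none of these had an unadjusted p under 0.05. At day 21 they called none of 5 in the Car4 class (0.756%), with 0 unadjusted, and none of 5 in the remaining cells (1.1%), with 1 unadjusted, Jam2. At day 21 they called, within the Vwf class, neither of the 2 members tested (0.741%), Icam2 (-0.19 ± 0.34, adjusted p 0.977) and Pecam1 (-0.55 ± 0.36, adjusted p 0.959), with 0 unadjusted.

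At day 7 the Icam1 values of endothelium were 290.1, 297 and 232 CPM in β1 fl/fl mice and 245, 269 and 274 in β1 AT2-KO mice, which overlap (log2 -0.07 ± 0.16, adjusted p 0.861, edgeR). Icam2 was at 1822, 1832 and 1692 against 1639.9, 1568 and 1665, lower in each β1 AT2-KO mouse, with a log2 change of -0.15 ± 0.08 that did not pass (adjusted p 0.383). Within the Vwf class and the remaining cells the fitted Icam2 change had the other sign, 0.10 ± 0.12 and 0.11 ± 0.10, and in the Car4 class it was -0.13 ± 0.08 (adjusted p 0.538, edgeR). The Car4 class made up 54.6% ± 2.08 of β1 fl/fl and 41.4% ± 0.781 of β1 AT2-KO endothelium (SD, n = 3). Cd34 stood at -0.28 ± 0.13 (adjusted p 0.316), Pecam1 at -0.15 ± 0.08 (adjusted p 0.385) and Vcam1 at 0.80 ± 0.41 (adjusted p 0.370). In the Vwf class Selp was at 30.4, 87.2 and 64.3 in β1 fl/fl mice and at 2.13, 139 and 19.4 in β1 AT2-KO mice (-0.30 ± 0.58, adjusted p 0.898), and without β1 AT2-KO mouse 2 it passed (-2.46, adjusted p 0.0308).

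At day 21 Icam1 in endothelium was at 439, 431 and 382 CPM in β1 fl/fl mice and 398, 406 and 429.7 in β1 AT2-KO mice, a log2 change of 0.00 ± 0.11 (adjusted p 0.999, edgeR). Icam2 (0.27 ± 0.10, adjusted p 0.219) and Cd34 (0.41 ± 0.15, adjusted p 0.237) were higher in each β1 AT2-KO mouse than in each β1 fl/fl mouse without passing the test. Vwf stood at -0.87 ± 0.40 (adjusted p 0.348), and it passed without β1 fl/fl mouse 3 (-1.24, adjusted p 0.0460) and with no low-count filter (-0.89, adjusted p 1.51e-05). Cd34 also passed with no low-count filter (0.38, adjusted p 0.0340). The Car4 class made up 44.9% ± 0.629 of endothelium in β1 fl/fl and 57.4% ± 5.54 in β1 AT2-KO mice (SD, n = 3), so the genotypes differed in class make-up in opposite directions at the 2 times.

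The difference between the genotype effects of day 7 and day 21 was tested itself, and 0.93% of 11720 genes passed. None of the 8 members did by edgeR, with 4 at an unadjusted p under 0.05, namely Icam2 (-0.40 ± 0.13, adjusted p 0.152), Cd34 (-0.66 ± 0.23, adjusted p 0.224), Pecam1 (-0.25 ± 0.11, adjusted p 0.376) and Vwf (1.16 ± 0.51, adjusted p 0.370). DESeq2 called 1 of them, Icam2 (-0.42, adjusted p 0.0220), and with no low-count filter edgeR called Cd34 (-0.66, adjusted p 0.0237) and Vwf (1.16, adjusted p 0.0136). The day 21 libraries were enriched for epithelium and the day 7 libraries were not, so day and enrichment cannot be told apart.

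Icam1 was the member with an epithelial level. In AT2 cells it was at 254, 319 and 308 CPM in β1 fl/fl mice after LPS at day 7 and at 520.4, 444 and 476 in β1 AT2-KO mice, with no overlap. It was the only member with enough UMIs for the test there and was higher without the integrin by 0.62 ± 0.16 log2 units (1.53-fold, adjusted p 0.0427, edgeR), in a comparison where 2.05% of 5070 genes passed. That call was lost in 9 of 12 alternatives, in which the adjusted p reached 0.258 without β1 fl/fl mouse 1 and was 0.174 by DESeq2, while the log2 change stayed between 0.52 and 0.72. Leaving out any 1 mouse of either group ended it. The 3 β1 fl/fl mice rested on 54, 26 and 17 AT2 cells, of 127 in their library, and Xist differed between these groups as above.

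The same comparison at day 21 gave 312, 397 and 361 CPM in β1 fl/fl mice and 480.5, 493 and 432 in β1 AT2-KO mice. The groups again did not overlap, but the log2 change of 0.28 ± 0.11 did not pass (adjusted p 0.183, edgeR; 0 of 3 members called, 2 with an unadjusted p under 0.05, where 3.86% of 8860 genes passed). After thinning to 1500 UMIs, the mean share of AT2 cells with an Icam1 UMI was 31.6% ± 5.21 in β1 fl/fl and 50.3% ± 7.09 in β1 AT2-KO mice at day 7, and 36.8% ± 4.67 and 50.4% ± 5.31 at day 21 (SD, n = 3). Each gave p = 0.1 in the two-sided exact permutation test, the smallest 3 mice against 3 can reach. Without thinning the library shares were 78.0% and 89.1% at day 7, at median depths of 8877 and 7626 UMIs, against 38.8% and 34.4% in stromal cells at 4688 and 4171 UMIs. The PBS mice stood at 355, 299 and 536 CPM, 2 of them below and 1 above the day 7 LPS mice of their genotype. These PBS values rest on only 5, 2 and 10 AT2 cells in the same order, of 29 in the library.

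**Figure D5:**
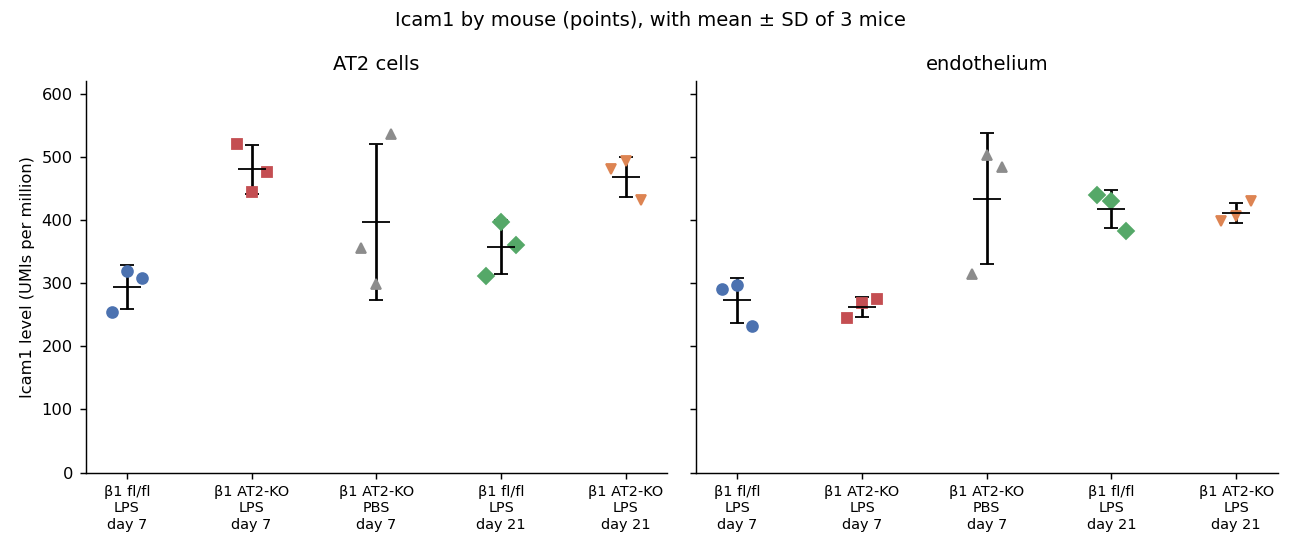
Icam1 in CPM (vertical axis) in endothelium and in AT2 cells of the 5 groups. Points are mice and bars mark means with SD; in AT2 cells each β1 AT2-KO LPS mouse (432 to 520.4) lies above each β1 fl/fl LPS mouse (254 to 397), while in endothelium the genotypes overlap and the β1 AT2-KO PBS mice average 434.

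Other genes of the same process were followed in 6 lists. After LPS in β1 AT2-KO endothelium 26.3% of all genes passed and their median log2 change was 0.02, and the counts of the lists are given beside that background. The list of cytokine-responsive regulators (12 tested) had 1 gene higher and 3 lower, with a median of -0.08. The lower ones were Gata2, an endothelial transcription factor (-1.31 ± 0.15, adjusted p 0.000171, edgeR), Rela, the p65 subunit of NF-κB (-0.46 ± 0.07), and Irf1, an interferon-responsive factor (-1.003 ± 0.20). Of 10 partners of the docking structure, the membrane platform that gathers ICAM-1 and VCAM-1 around a leukocyte, 1 was higher and 5 were lower (median -0.22). Among them were the tetraspanins Cd151 (-0.48 ± 0.08), Cd9 (-0.49 ± 0.09) and Cd81 (1.25 ± 0.23).

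The next lists are from the same LPS comparison, in which 26.3% of all genes passed. Of 11 genes of the glycocalyx and luminal surface, 9 were tested, 3 higher and 3 lower (median -0.26). They included Cd47, the ligand of SIRPα (-0.61 ± 0.10), Thbd, the thrombin receptor thrombomodulin (-0.77 ± 0.13), and Bst1, a venous surface enzyme (0.98 ± 0.23). Of 10 junctional genes 9 were tested, 3 higher and 1 lower (median 0.15), with Alcam (2.53 ± 0.38) and Nectin2 (1.38 ± 0.28) higher and Esam (-0.59 ± 0.09) lower. Of 10 genes of the Weibel-Palade body, the storage granule of von Willebrand factor and P-selectin, 1 was higher, the granule tetraspanin Cd63 (1.92 ± 0.20). Of 8 leukocyte receptors 1 had enough UMIs to be tested and it did not pass.

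With genotype at day 7, 4 of these lists had no called gene. The regulators had Klf2 higher (0.67 ± 0.13) and Gata2 lower (-0.74 ± 0.15), and the Weibel-Palade list had Edn1 higher (edgeR, adjusted p under 0.05). Of all 11646 genes tested in endothelium in that comparison 2.21% passed, so a short list without a call is near that share. Between the Car4 class, which was gated on the absence of Vwf UMIs, and the remaining cells, 1 of 9 tested Weibel-Palade genes was higher and 6 were lower, with a median of -0.54 against -0.02 for all genes, of which 34.2% passed. Against the same cells the Vwf class had 3 of 10 higher and 1 lower, where 10.7% of all genes passed.

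Across the 25 combinations of 5 libraries and 5 cell classes, the genes whose level moved most like each member were named by Pearson correlation of log2 values; the points share libraries and cells and carry no p. Icam2 lay closest to Tspan13 (r 0.997), Pecam1 to S1pr1, the sphingosine phosphate receptor (0.998), Jam2 to Pde3a (0.984) and Cd34 to Tmem47 (0.975). Vcam1 lay closest to Atp2b4 (0.965), Vwf to Bst1 (0.951), Selp to Lhx6 (0.932) with Bst1 next (0.916), and Sele to Tmem255b (0.927). Icam1 had the lowest of these leading values, 0.867 with Lmo7, followed by Clu (0.837) and Mdfic (0.818). The Sele value rests on very few cells. Its highest point, 85.5 CPM in the Vwf class of the β1 fl/fl LPS day 21 library, was 17 UMIs in 1 cell. The endothelial classes were gated on Vwf, so the profile of Vwf over them was set in part by the gate.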

How the data were processed

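Cells of 5 libraries (10x Chromium 5′ kit, a hashtag for each mouse) were measured. The authors deposited raw UMI counts for each cell barcode, made with Cell Ranger 3.1 on mm10; their later removal of ambient RNA and doublets is not in these counts. Cells with 700 or more genes and 0.1 to 15% mitochondrial UMIs were kept, and a mouse was assigned where a single hashtag exceeded 4 times its background with 10 or more counts. Total counts of kept cells ranged from 8360954 to 29128331 for each library. The gates were those given in the text; AT2 cells had Sftpc at 5% or more of UMIs with Epcam and without Cdh5, Cldn5 or Col1a2. An automatic doublet caller (Scrublet in scanpy 1.11.5) marked 0 to 0.0231% of day 7 cells, too few to have worked, so doublets were removed at the expected rate as an alternative.

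UMIs summed by mouse and class were tested with edgeR 4.0.16 (quasi-likelihood, TMM, low-count filter, Benjamini-Hochberg over all genes, 0.05) in R 4.3.3, with DESeq2 1.42.0 as an alternative. Statistical scripts were tested on simulated data. Intervals are exact and cover counting error only; levels of a single value used the exact permutation test. The text names the 9 members, up to 3 called genes for each list and comparison by smallest p, the 3 genes most like each member, and checks of gates and labels. The members and lists were chosen with earlier results of these data known. Replicates are mice, and the steps of Car4 UMIs, the limit of 5 Car4 UMIs and the 2 differences of LPS effects between classes were added after the data were seen. 1 gene of the Weibel-Palade list is not reported here.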

Additional observations from a re-analysis of the deposited data

Results flagged for a closer look

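Both results below were picked out because the same LPS contrast, in β1 AT2-KO lungs at day 7, differed between cell classes by a test of the difference itself (edgeR's quasi-likelihood test, 3 mice in each group). For Icam1 the log2 change of the Car4 class minus that of the remaining cells was -0.56 (adjusted p 0.00115), and it was -0.39 (adjusted p 0.104) when the Car4 class was limited to 5 or more Car4 UMIs. For Cd34 the difference was -0.80 (adjusted p 6.78e-06), with adjusted p values up to 0.00271 over 15 alternatives.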

How the results depend on the processing

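Of the called members, Icam1 and Icam2 in endothelium after LPS, Cd34 in the Vwf and remaining classes after LPS and 10 class differences of members other than Selp kept their direction and call in each alternative run; the exceptions among other calls are given with their values in the report. No called member changed direction in an alternative run. Some members that did not pass in either run did change sign. In the Car4 class after LPS, the log2 change of Jam2 was -0.12, and 0.11 with 5 or more Car4 UMIs. That of Pecam1 was -0.08, and 0.02 with 5 or more Car4 UMIs. Over all genes, the number called changed by more than 1.5 times in these cases. With DESeq2 it was 61 in endothelium at day 21, 59 and 298 in the Vwf class for genotype at day 7 and for LPS, 22 and 24 in the Car4 and remaining classes at day 21, 206 for the difference between days, 48 in AT2 cells at day 7 and 22 for the LPS difference between the Vwf and remaining classes. With no low-count filter it was 308 in endothelium at day 21, 210, 535 and 380 in the Vwf, Car4 and remaining classes for genotype at day 7, 114 and 74 in the Car4 and remaining classes at day 21, 310 for the difference between days, 179 in AT2 cells at day 7 and 127 for the LPS difference between the Car4 and remaining classes. With 5 or more Car4 UMIs it was 81, 974 and 17 in the Car4 class for genotype at day 7, LPS and genotype at day 21, and 177 for the LPS difference from the remaining cells, which was 77 with doublets removed. In the Vwf class at day 21, where 2 genes were called, it was 9 with no low-count filter and 1 with the stricter gate. In AT2 cells at day 7 it was 63 with the stricter gate and 43 with the stricter hashtag limit. The causes were not tested.

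Without 1 mouse at a time, the counts ranged from 81 to 231, 2258 to 3151 and 44 to 167 in endothelium (genotype at day 7, LPS, genotype at day 21), from 49 to 120 and 327 to 590 in the Vwf class (genotype at day 7, LPS) and 2 to 3 there at day 21, from 73 to 127, 1380 to 2087 and 18 to 63 in the Car4 class, and from 24 to 138, 1053 to 1483 and 30 to 60 in the remaining cells. They ranged from 33 to 127 for the difference between days, from 47 to 120 and 215 to 338 in AT2 cells at day 7 and day 21, from 803 to 975 and 3536 to 3900 for the Vwf and Car4 classes against the remaining cells, and from 11 to 99 and 30 to 58 for the LPS differences of the Car4 and Vwf classes. Classes were paired within each mouse in the class comparisons. Mice could not be paired across groups, because each hashtag number marks a different mouse in each library and nothing in the labels ties them. The selectins were found in under 1% of endothelial cells in each library, and how far depth limits them was not tested.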
